A study of Mus musculus with 6 samples.

Results

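The coagulation and plasminogen system was followed in macrophages through 9 genes, *F3*, *F7*, *F10*, *F13a1*, *Thbs1*, *Plau*, *Plaur*, *Procr* and *Thbd*, which were chosen by name and make up 9 of the 15415 genes listed for 6 RNA sequencing libraries of peritoneal macrophages (PEMs). The mice of the knockout group were LysM-Cre; *Tim-4* fl/fl and those of the control group were *Tim-4* fl/fl, with 3 libraries in each group. PEMs are macrophages washed from the peritoneal cavity, here after an injection of starch, and the labels give LPS as the treatment of every library. According to the methods of the study, the mice were young male C57BL/6J animals carrying loxP sites around part of *Tim-4*. The same floxed allele was thus shared by both groups, and only the knockout mice carried Cre, expressed from the lysozyme gene *Lyz2* in myeloid cells and not in macrophages alone. Effects of the Cre allele and of the *Tim-4* deletion cannot be told apart in this design. The genotype field and the title of each sample contradict each other in the labels, and the groups used here follow the titles. Neither the labels nor the methods say whether each library came from its own animal, so p-values measure the spread between these libraries, which may be technical in part.

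Coagulation starts when tissue factor (encoded by *F3*) on a cell surface binds factor VII (*F7*) and the complex activates factor X (*F10*), which leads to thrombin and fibrin. Factor XIII, whose A subunit is encoded by *F13a1*, crosslinks fibrin, and the matrix protein thrombospondin-1 (*Thbs1*) is also released by platelets. The endothelial protein C receptor (*Procr*) and thrombomodulin (*Thbd*) promote the activation of protein C, an anticoagulant. Urokinase (*Plau*) bound to its receptor (*Plaur*) turns plasminogen into plasmin, which dissolves fibrin and helps leukocytes to migrate. Macrophages are known to make tissue factor when activated, and PEMs are a classical source of factors VII and X outside the liver. The study asked how macrophage Tim-4 bears on venous thrombosis and measured tissue factor and von Willebrand factor in vessels and endothelial cells, whereas the data described here are bulk transcripts of PEM preparations.

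The promoters of *F7* and *F10* are shown because these genes follow each other on the same strand of mouse chromosome 8 with no other RefSeq gene between them, and *F7* passed the threshold between the groups while *F10* did not, which is no test of a difference between these genes. Those of *Procr*, *F3* and *Plaur* are shown as the promoters of the member with the largest decrease, of the gene that starts coagulation and of the most abundant receptor among the 9 genes. The sequences are from RefSeq (GRCm38.p6, all on the plus strand, which is not the mm9 build that the labels name for the files) and hold the 250 bases before the start of the gene, 5′ to 3′. Of the 9 genes, 6 had an entry in the table. Capitals mark matches on either strand. The motifs were TGANTCA for AP-1, the core GAGGAA for the myeloid factor PU.1, GGGCGG for the widely active factor Sp1, AGATAA for the GATA factors, and NF-κB by its consensus. Neither GATA nor NF-κB had a match in the promoters of these 6 genes.
*F7*, chr8:13025784-13026033: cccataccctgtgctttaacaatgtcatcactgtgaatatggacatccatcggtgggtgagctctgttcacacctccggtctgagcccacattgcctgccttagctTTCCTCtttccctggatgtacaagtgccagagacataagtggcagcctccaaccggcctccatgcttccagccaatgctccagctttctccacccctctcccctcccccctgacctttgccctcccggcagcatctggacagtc
*F10*, chr8:13037058-13037307: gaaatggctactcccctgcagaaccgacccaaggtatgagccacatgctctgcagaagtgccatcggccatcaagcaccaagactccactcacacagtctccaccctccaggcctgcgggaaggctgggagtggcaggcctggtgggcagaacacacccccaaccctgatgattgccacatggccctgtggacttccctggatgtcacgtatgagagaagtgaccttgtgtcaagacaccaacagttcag
*Procr*, chr2:155750967-155751216: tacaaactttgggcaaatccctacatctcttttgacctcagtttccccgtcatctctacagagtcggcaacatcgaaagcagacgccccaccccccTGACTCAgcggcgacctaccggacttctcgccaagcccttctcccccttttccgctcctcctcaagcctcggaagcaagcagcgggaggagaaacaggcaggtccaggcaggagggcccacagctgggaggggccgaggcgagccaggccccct
*F3*, chr3:121723287-121723536: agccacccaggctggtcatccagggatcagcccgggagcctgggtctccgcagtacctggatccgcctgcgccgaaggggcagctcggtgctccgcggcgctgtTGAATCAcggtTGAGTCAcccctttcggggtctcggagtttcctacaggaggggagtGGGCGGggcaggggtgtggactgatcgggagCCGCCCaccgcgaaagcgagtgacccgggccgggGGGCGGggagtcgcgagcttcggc
*Plaur*, chr7:24462233-24462482: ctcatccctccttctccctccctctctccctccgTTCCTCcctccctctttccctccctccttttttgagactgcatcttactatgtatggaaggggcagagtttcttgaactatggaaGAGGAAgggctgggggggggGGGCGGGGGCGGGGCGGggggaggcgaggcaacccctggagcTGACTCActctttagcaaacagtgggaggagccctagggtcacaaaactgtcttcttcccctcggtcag

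An AP-1 match, the sequence bound by Fos and Jun proteins, was present in 6.7% of all 32851 promoter windows of this length. The *F3* promoter held 2 such matches, which began 146 and 135 bases before the start, while *Procr* held 1 at 154 bases and *Plaur* held 1 at 69 bases. *F7* and *F10* had none. A PU.1 core, a motif found in 23.3% of windows, lay at 144 bases in *F7* and at 216 and 131 bases in *Plaur*. The *F3* and *Plaur* promoters each held 3 Sp1 matches, those of *Plaur* partly overlapping, a motif in 32.7% of windows. NF-κB matches were in 7.3% of windows and GATA matches in 3281 of them. *F13a1* has 2 promoters in the table, 1 of them with a PU.1 core at 66 bases. These matches describe the letters of the windows and are not binding sites shown by these data.

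Expression was given as FPKM, in which reads are divided by gene length and library size, so that levels can be compared between genes. Between 36170767 and 42217558 reads per library fell on the listed genes. As a check of the groups, the FPKM of *Timd4*, the gene of Tim-4, was 0.333, 0.394 and 0.246 for knockout libraries 1 to 3 and 19.5, 12.05 and 1.19 for control libraries 1 to 3 (log2 fold change -2.66, adjusted p = 0.0715, and 0.0436 with the replicate number as a block, from limma). Control library 3 was thus the control nearest to the knockout libraries. The FPKM of *Lyz2* was 41.4, 4656 and 106 in the knockout libraries, against 7090 to 8482 in the controls, so that knockout library 2 stood apart from the other knockout libraries. Macrophage markers (*Adgre1*, *Csf1r*, *Cd68* and 4 others) were present in every library. Their levels summed to 2300 to 2470 FPKM in the knockout and 1640 to 2180 FPKM in the control group. *Cd68* was the largest part (1572 to 1685 against 815.5 to 1379 FPKM). Of the 7 genes, 1 was called higher in the knockout (*Fcgr1*) and 4 had negative log2 fold changes. *Csf1r* was lower without overlap (83.3 to 143.4 against 151.5 to 179.6 FPKM, adjusted p = 0.0903 from limma). Markers of large peritoneal macrophages other than *Cd9* summed to 4.18 to 8.06 FPKM in the knockout and 36.6 to 151 FPKM in the control libraries. Most of the control sums was *Prg4* (113.6, 70.5 and 30.1 FPKM in libraries 1 to 3), and the targeted *Timd4* was counted in them. *Cd9* had a positive log2 fold change (0.33), and with it the sums overlapped (384 to 485 against 376 to 506 FPKM). *Gata6* of this list was below the filter and its groups overlapped. Of the 7 tested genes of the whole list, 4 were lower in the knockout group. Further lists were lower in the knockout group too, with summed levels of 2.78 to 5.52 against 27.5 to 115 FPKM for B cells (5 of 5 tested genes lower) and 1.58 to 2.04 against 37.5 to 47.3 FPKM for mast cells (4 of 4). The neutrophil list summed to 42.0 to 73.8 against 161 to 175 FPKM (2 of 4 tested genes lower), nearly all of it *S100a8*, while *S100a9* stayed below 5.12 FPKM with overlapping groups and *Ly6g*, *Mpo* and *Elane* were not among the listed genes. Markers of monocytes or small peritoneal macrophages summed to 475 to 1250 against 863 to 2270 FPKM (2 of 7 tested genes lower), and these ranges overlapped. T cell markers stayed below 3.26 FPKM in sum, and those of mesothelial cells or fibroblasts summed to 13.4 to 34.1 against 2.13 to 15.1 FPKM, with 0 of 1 and 0 of 4 tested genes called. The largest part of the T cell sum was *Lck*. *Cd3e* and *Cd3d*, with at most 28 and 13 reads, were below the filter and lower in the knockout without overlap, while *Cd3g*, *Cd4* and *Cd8a* overlapped. In bulk samples, fewer cells of a type and less RNA per cell cannot be told apart.

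The PEM libraries held 8 of the 9 genes at a level that could be tested, a mean of at least 1 FPKM in one group. The 9030 genes that met this filter were fitted together in limma on the log2(FPKM + 1) scale, and a gene was called at a Benjamini-Hochberg adjusted p below 0.05. A fold change on this scale understates the change of low genes. *F7* was higher in the knockout libraries, *Procr* and *Thbs1* were lower, and *F3*, *F10*, *F13a1*, *Plau* and *Plaur* did not pass the threshold. Thus 3 of 8 members (37.5%) were called against 7.31% of all genes tested (2.57% higher and 4.74% lower in the knockout). The groups did not overlap for the same 3 members, a share of 37.5% beside 34.1% of all genes tested, which is near the background. The median log2 fold change of the 8 members was 0.08, beside -0.11 for all genes, and rescaling by the median of ratios moved these medians to 0.23 and 0.01. The calls over all genes were then 343 higher and 326 lower in place of 232 and 428, while the members kept 1 higher and 2 lower.

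**Figure D1:**
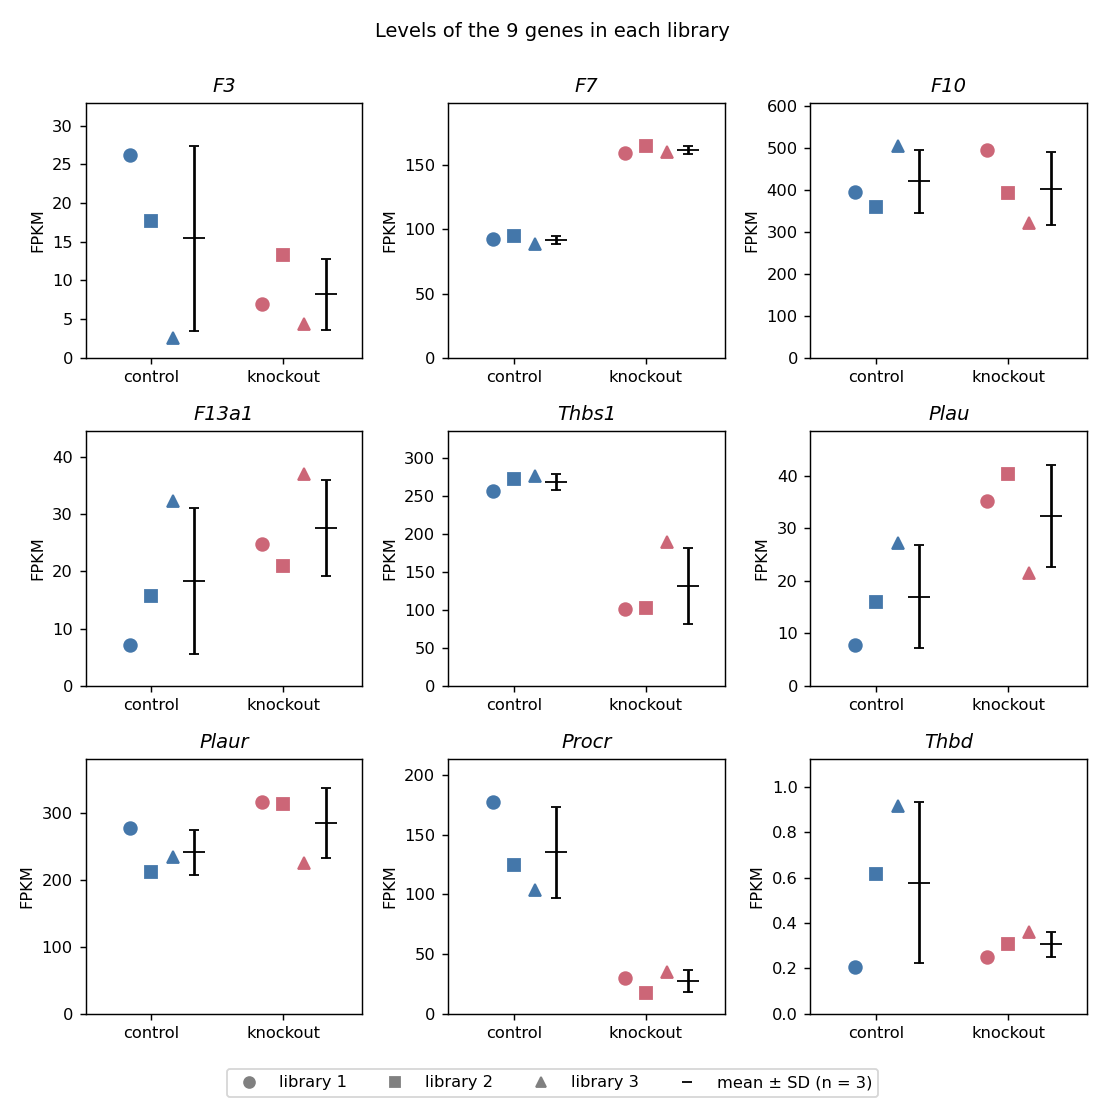
FPKM of the 9 genes (vertical axes, starting at 0) in the control (blue) and knockout (red) libraries, with symbols for libraries 1 to 3 and the mean ± SD of each group (n = 3) in black. The groups lie apart for F7, Thbs1 and Procr and overlap for the other genes, and F3 is spread from 2.51 to 26.2 FPKM within the control group alone.

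Ordered by their mean over the 6 libraries, the levels ran from *F10* at 411.5 FPKM through *Plaur* (263), *Thbs1* (200.1), *F7* (127), *Procr* (81.3), *Plau* (24.6), *F13a1* (23.0) and *F3* (11.8) to *Thbd* at 0.442 FPKM. *F10* was at place 154 among the 9030 genes tested. The next in this order, *Plaur* and *Thbs1*, exchanged places in the means of the control group and in 2 of its 3 libraries, with overlapping levels (241 ± 33.6 and 269 ± 10.7 FPKM, mean ± SD, n = 3), and the levels of *Plau* and *F13a1* overlapped in both groups. The control group held more *Procr* than *F7* transcript in every library and the knockout group held more *F7* than *Procr* in every library. The summed level of the 9 genes lay between 994.3 and 1171 FPKM in the knockout and between 1114 and 1273 FPKM in the control libraries, so the ranges overlapped. Within this sum the share of *F7* was 15.1% ± 1.29 in the knockout and 7.64% ± 0.774 in the control libraries (SD, n = 3), and that of *Procr* was 2.56% ± 0.962 and 11.2% ± 3.07.

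Of the genes that start coagulation, *F7*, which encodes the protease that pairs with tissue factor (Entrez 14068), had FPKM values of 160.0, 165.5 and 160.6 in knockout libraries 1 to 3, against 92.4, 94.6 and 88.9 in control libraries 1 to 3. The groups lay apart with the knockout libraries on top, and the highest library exceeded the lowest 1.03-fold within the knockout and 1.06-fold within the control group. The means were 162 ± 3.04 and 92.0 ± 2.91 FPKM (SD, n = 3 each), 1.76 times as high in the knockout group, from 5962 to 12964 reads per library. The log2 fold change was 0.81 (standard error 0.11, 95% interval 0.55 to 1.07, adjusted p = 0.0124 from limma), and it was 0.96 after the rescaling (adjusted p = 0.0161 from limma). With single libraries left out it stayed between 0.79 and 0.83 with unadjusted p of at most 0.00136 in limma, but the adjusted p rose to 0.0742 or 0.0782 when knockout library 1 or 2 was left out, and to 0.0807 when control library 2 was.

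*F10*, the gene of factor X beside *F7* (Entrez 14058), reached 495.9, 391.8 and 321.2 FPKM in knockout libraries 1 to 3, whereas the controls gave 394.4, 360.2 and 505.7 FPKM. The groups overlapped, with the lowest value in a knockout library and the highest in a control library. Its log2 fold change was -0.07, with a 95% interval from -0.55 to 0.41 (adjusted p = 0.856 from limma), and its sign turned after the rescaling (0.08). A ratio of levels within a library is free of the scaling of the library. The ratio of *F7* to *F10* was 0.323, 0.422 and 0.5 in the knockout libraries and 0.234, 0.263 and 0.176 in the controls, with no overlap (means 0.415 ± 0.0889 and 0.224 ± 0.0444, SD, n = 3). The exact permutation p (both sides) was 0.1, the smallest that 3 against 3 libraries allow. This and the other ratios were chosen after the values had been seen.

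*F3*, the gene of tissue factor (Entrez 14066), was low, with 6.98, 13.3 and 4.38 FPKM for the knockout and 26.2, 17.7 and 2.51 FPKM for the control libraries. The control group held both the highest and the lowest value, a 10.4-fold range, against a 3.03-fold range in the knockout group. The log2 fold change of -0.51 had a standard error of 0.75 and a 95% interval from -2.27 to 1.24 (adjusted p = 0.685 from limma), so that a change in either direction by over 2-fold lies within the interval. The value was decided by single libraries. Leaving out control library 3 gave -1.41 (adjusted p = 0.0569 from limma), and leaving out control library 1 gave 0.07 (adjusted p = 0.956 from limma). With knockout library 2 and control library 3 both left out, which was tried only once the values were known, it was -1.78 and passed the threshold (adjusted p = 0.0227 from limma).

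The control libraries were ordered alike in several genes. Control library 1 was the highest and control library 3 the lowest for *F3*, *Procr* and *Timd4*, while control library 3 was the highest and control library 1 the lowest for *F13a1*, *Plau*, *Thbd* and *Thbs1*. In *Thbs1* this range was only 1.08-fold, against 4.55-fold in *F13a1* and 3.52-fold in *Plau*. The median range within the control group was 1.56-fold over the 8 tested members and 1.44-fold over all genes tested, and 1.82-fold and 1.25-fold within the knockout group. Markers of large peritoneal macrophages other than *Cd9* summed to 151, 95.3 and 36.6 FPKM in control libraries 1 to 3. The B cell list (115, 78.9 and 27.5 FPKM) and the monocyte list (2270, 1500 and 863 FPKM) fell in the same order. The platelet list (303, 607 and 935 FPKM) and the mesothelial or fibroblast list (2.13, 6.66 and 15.1 FPKM) had the opposite order, that of *F13a1* and *Plau*. The monocyte sums were nearly all *Cd74*, *H2-Aa* and *H2-Ab1*, while *Ly6c2* of that list rose over control libraries 1 to 3 (5.42, 14.9 and 32.5 FPKM). The part of these lists in the values of *F3*, *F13a1* and *Plau* was not tested.

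**Figure D2:**
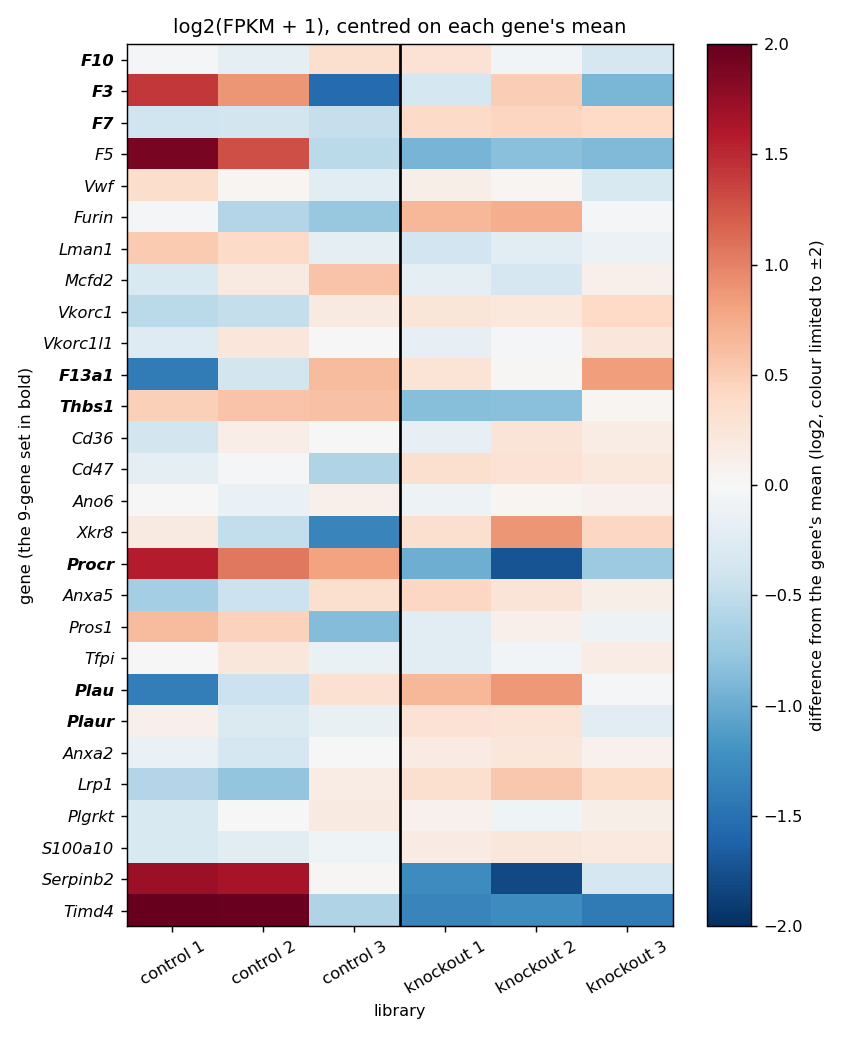
Level of the members and of 19 genes of the wider list in each library as log2(FPKM + 1) minus the gene's mean over the 6 libraries (colour, log2 units, limited to ±2), with control libraries on the left and knockout libraries on the right of the line, Timd4 in the last row. Control library 3 differs in colour from the other controls for F3, F5 and Timd4, whereas F7, Thbs1 and Procr keep one colour across the control libraries.

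*F13a1*, the gene of the fibrin-crosslinking factor XIII A subunit (Entrez 74145), gave 24.8, 20.9 and 37.1 FPKM in knockout libraries 1 to 3, and the controls gave 7.08, 15.7 and 32.2 FPKM. The value of control library 3 lay within the range of the knockout libraries. Its log2 fold change was 0.76 (standard error 0.48, 95% interval -0.38 to 1.89, adjusted p = 0.344 from limma). Leaving out control library 3 raised it to 1.26 (adjusted p = 0.0554 from limma), and leaving out control library 1 lowered it to 0.24.

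*Thbs1*, the gene of thrombospondin-1 (Entrez 21825), stood at 101, 103 and 189 FPKM in the knockout group, below the 257, 273 and 277 FPKM of control libraries 1 to 3. All knockout libraries were below the controls, and knockout library 3 lay closest to them. The means of 131 ± 50.2 and 269 ± 10.7 FPKM (SD, n = 3 each) made the level 2.05 times as high in the control group. This corresponded to a log2 fold change of -1.10 (standard error 0.25, 95% interval -1.67 to -0.52, adjusted p = 0.0426 from limma), and to -0.95 after the rescaling (adjusted p = 0.0471 from limma). This call stood close to the threshold. It was lost without a filter on low values (adjusted p = 0.0739 from limma) and without knockout library 1 (0.159), knockout library 2 (0.176), control library 1 (0.0576) or control library 2 (0.155), with log2 fold changes from -1.39 to -0.94 over all fits that left out 1 library. Platelets, which also carry thrombospondin-1 and factor XIII, were looked for by 8 markers. Of these, *Gp1bb* and *Gp9* were not among the listed genes and *Itga2b*, *Gp1ba* and *Gp6* stayed below 1 FPKM in every library. The sum of 187 to 557 FPKM in the knockout and 303 to 935 FPKM in the control libraries was mostly *Pf4*, which macrophages express as well, and 0 of the 2 tested genes were called. The other, *Ppbp*, measured 3.52, 1.38 and 18.9 FPKM in the knockout group against 1.01, 26.3 and 59.0 FPKM in the controls, highest in library 3 of each group as were *Thbs1* and *F13a1*, and its part in their levels was not tested.

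The thrombospondin receptors *Cd36* and *Cd47* stayed short of the threshold. *Cd36*, which also takes up lipids, was at 469 ± 68.2 FPKM in the knockout and 423 ± 71.5 FPKM in the control libraries (SD, n = 3, log2 fold change 0.15, adjusted p = 0.608 from limma). *Cd47*, known as a signal against phagocytosis, was at 30.7 ± 1.26 and 20.9 ± 4.19 FPKM (log2 fold change 0.55, adjusted p = 0.0884 from limma), with all knockout libraries above the controls.

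*Procr*, the gene of the endothelial protein C receptor (Entrez 19124), had the largest difference of the 9 genes. Its levels were 29.5, 17.2 and 35.1 FPKM in knockout libraries 1 to 3, while control libraries 1 to 3 had 177.6, 124.3 and 104.0 FPKM. The highest knockout library was far below the lowest control library, and the means of 27.3 ± 9.19 and 135 ± 38.0 FPKM (SD, n = 3 each) made the level 4.96 times as high in the control group. For *Procr* the log2 fold change was -2.29 (standard error 0.30, 95% interval -2.99 to -1.59, adjusted p = 0.0113 from limma), and -2.15 after the rescaling (adjusted p = 0.0184 from limma). It stayed between -2.50 and -2.001 with single libraries left out, but without knockout library 1 or control library 2 the adjusted p was 0.0569 and 0.0838. *Procr* remained called with knockout library 2 and control library 3 both left out (log2 fold change -2.17, adjusted p = 0.00743 from limma), as did *F7* (0.77, adjusted p = 0.0425 from limma), whereas *Thbs1* did not (-0.93, adjusted p = 0.141 from limma).

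Endothelial cells, the best known source of *Procr* and *Thbd*, had low marker levels in both groups. The 5 listed markers of 8 summed to 6.19 to 9.06 FPKM in the knockout and 6.41 to 10.4 FPKM in the control libraries, *Tek*, *Cldn5* and *Egfl7* were not among the listed genes, and 0 of the 3 tested genes were called. Most of this sum was *Vwf*, and single markers went opposite ways. *Pecam1*, which leukocytes also carry, was at 0.114 to 0.25 FPKM in the knockout and 0.572 to 3.08 FPKM in the control libraries, the direction of *Procr* (log2 fold change -1.18, adjusted p = 0.0679 from limma). *Kdr* was at 1.25 to 2.47 against 0.0485 to 1.11 FPKM, the other direction (log2 fold change 0.95, adjusted p = 0.0842 from limma). The lists whose summed levels were lower without overlap, those of large peritoneal macrophages (with *Cd9* left out), B cells and mast cells, and that of neutrophils through *S100a8*, moved in the direction of *Procr* and *Thbs1*. The part of these lists and of *Pecam1* in the decreases was not tested.

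*Thbd*, the gene of thrombomodulin (Entrez 21824), was barely detected, with 0.25, 0.306 and 0.361 FPKM for the knockout and 0.204, 0.615 and 0.915 FPKM for the control libraries, from 30 to 123 reads per library. It was below the filter in both groups and was not tested with the other genes. The groups overlapped, and in a fit without a filter the log2 fold change was -0.25 (95% interval -0.65 to 0.15, adjusted p = 0.398 from limma). The receptor *Procr* was therefore expressed without a comparable level of its partner *Thbd* in either group.

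In the plasminogen system, *Plau*, the gene of urokinase (Entrez 18792), had levels of 35.1, 40.4 and 21.4 FPKM in the knockout group, and the controls had 7.72, 16.0 and 27.2 FPKM. Control library 3 reached above knockout library 3, and the other controls lay below all knockout libraries. The fitted log2 fold change was 1.002 (standard error 0.43, 95% interval -0.003 to 2.01, adjusted p = 0.182 from limma). It was 1.41 and passed the threshold when control library 3 was left out (adjusted p = 0.0413 from limma), and 0.56 when control library 1 was left out (adjusted p = 0.262 from limma).

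*Plaur*, the gene of the urokinase receptor (Entrez 18793), was among the more abundant transcripts, with 317, 313 and 225 FPKM for the knockout and 278, 212 and 234 FPKM for the control libraries. The groups overlapped. Its log2 fold change was 0.23 (95% interval -0.20 to 0.66, adjusted p = 0.441 from limma). The receptor exceeded its ligand in every library, with a *Plaur* to *Plau* ratio of 7.74 to 10.5 in the knockout and 8.63 to 36.0 in the control libraries.

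Among the inhibitors of fibrinolysis, *Serpinb2*, the gene of plasminogen activator inhibitor 2, reached 179, 122 and 339 FPKM in the knockout group, against 1396, 1349 and 434.5 FPKM in control libraries 1 to 3, with no overlap. It was called with a difference of -2.26 in log2 units (standard error 0.53, adjusted p = 0.0486 from limma). This call was lost under the replicate block (adjusted p = 0.0661 from limma), without a filter (0.0876), with at least 10 reads in every library (0.0531), after the rescaling (0.066) and without knockout library 1, knockout library 2, control library 1 or control library 2 (0.163, 0.181, 0.0752 and 0.178), and control library 3 held the lowest control level.

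The ratio of *Plau* to *Serpinb2* was higher in every knockout library than in every control library. It was 0.196, 0.331 and 0.0631 against 0.00553, 0.0118 and 0.0625, so that knockout library 3 and control library 3 were almost equal. The exact permutation p (both sides) was 0.1, the smallest possible. The ratio of *F3* to *Tfpi*, the gene of the inhibitor of tissue factor, overlapped between the groups, at 1.54 to 5.76 in the knockout and 1.17 to 10.5 in the control libraries (exact permutation p = 0.6).

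Other genes of the system were taken from a list of 49, of which 33 were among the listed genes and 20 passed the filter. Of these, 0 were higher and 1, *Serpinb2*, was lower in the knockout group (5.0%, beside the 7.31% of all genes), and 11 of the 20 had an unadjusted p below 0.05 in limma, beside 2494 of all 9030 genes. The groups did not overlap for 9 of the 20 (45.0%, beside 34.1%). The median log2 fold change of the 20 genes was 0.05, with 12 above and 8 below 0, and after the rescaling it was 0.18, with 14 above and 6 below 0 and with 2 genes called higher and 0 lower. Under the replicate block, 1 gene was higher and 0 lower, the protease *Furin* in place of *Serpinb2*.

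**Figure D3:**
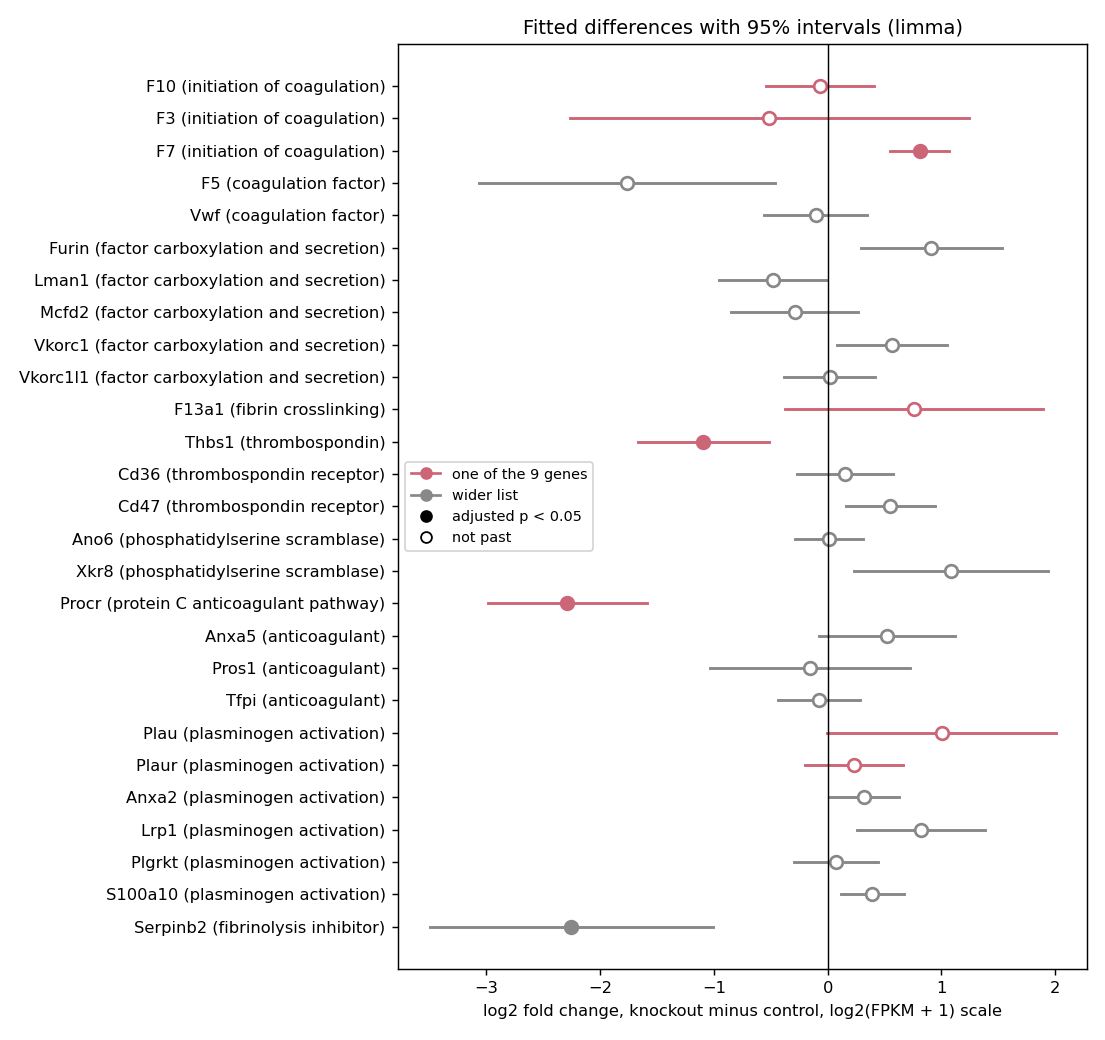
Log2 fold change of the tested members (red) and of 19 genes of the wider list (grey), knockout minus control on the log2(FPKM + 1) scale (horizontal axis), with 95% intervals from limma, filled where the adjusted p was below 0.05. The filled points are F7 at 0.81, Thbs1 at -1.10, Procr at -2.29 and Serpinb2 at -2.26, and the widest interval of the red genes is that of F3.

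Among the coagulation factors of this list, *F5* and *Vwf* passed the filter. *F5*, the cofactor of factor Xa, gave 0.73, 0.835 and 0.785 FPKM for the knockout and 11.3, 7.003 and 1.26 FPKM for the control libraries, with no overlap (log2 fold change -1.76, standard error 0.55, adjusted p = 0.0967 from limma). It passed when control library 3 was left out (adjusted p = 0.000954 from limma). Like *F5* and *Serpinb2*, the large peritoneal macrophage (with *Cd9* left out) and B cell lists were lower in the knockout and had their lowest control level in library 3. The part of these lists in the values of *F5* and *Serpinb2* was not tested. *Vwf*, the gene of von Willebrand factor, was at 4.72 ± 0.861 against 5.19 ± 1.26 FPKM (SD, n = 3), and its log2 fold change was -0.11, or 0.02 after the rescaling (limma gave adjusted p of 0.751 and 0.973). Genes for the fibrinogen chains, prothrombin and factors XI and XII were not among the listed genes. *Furin*, which cleaves precursor proteins, was at 122 ± 32.1 against 64.3 ± 17.7 FPKM (log2 fold change 0.91, adjusted p = 0.0781, and 0.0332 with the replicate block, from limma). *Mcfd2*, which helps to secrete factors V and VIII, was at 41.8 ± 6.92 against 52.4 ± 15.6 FPKM (adjusted p = 0.458 from limma).

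Among the anticoagulants, 0 of 3 tested genes were called. *Anxa5*, whose product covers phosphatidylserine, was abundant at 761 ± 78.9 against 552 ± 209 FPKM (SD, n = 3, log2 fold change 0.52, adjusted p = 0.23 from limma). *Pros1*, the gene of protein S, was at 5.87 ± 0.770 against 7.38 ± 3.87 FPKM (log2 fold change -0.16, adjusted p = 0.814 from limma). Both genes passed when control library 3 was left out, *Anxa5* at 0.81 and *Pros1* at -0.63 (adjusted p = 0.018 and 0.0337 from limma). *Pros1* turned to 0.12 when control library 1 was left out. Of the genes that help to activate plasminogen on the cell surface or to clear its activators, the 4 tested genes had positive log2 fold changes and 0 were called. *Anxa2* and *S100a10*, which form a plasminogen-binding complex, were at 477 ± 22.0 against 383 ± 42.7 FPKM and at 284 ± 5.87 against 216 ± 16.5 FPKM, with no overlap in either gene. Their log2 fold changes were 0.32 and 0.39 (adjusted p = 0.172 and 0.0881 from limma), and *S100a10* passed after the rescaling (adjusted p = 0.0439 from limma), as did the receptor *Lrp1* (0.0483). The phosphatidylserine scramblases *Ano6* and *Xkr8* had log2 fold changes of 0.01 and 1.08 (adjusted p = 0.97 and 0.112 from limma). The protease-activated receptors of this list stayed below the filter.

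The genes whose profile over the 6 libraries was nearest to that of *Procr* were *Gss*, *A530064D06Rik* and *Srxn1*, with root mean square distances of 0.178, 0.189 and 0.212 on the log2 scale after each gene was centred on its mean. *Gss* encodes glutathione synthetase and *Srxn1* encodes sulfiredoxin, enzymes of antioxidant defence. For *Plau*, the tested member with the largest positive log2 fold change, the nearest profiles were those of *Mcoln3*, *Ahnak* and *Grk3*, at 0.117, 0.173 and 0.176. These distances describe 6 libraries in 2 groups and carry no test.

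**Figure D4:**
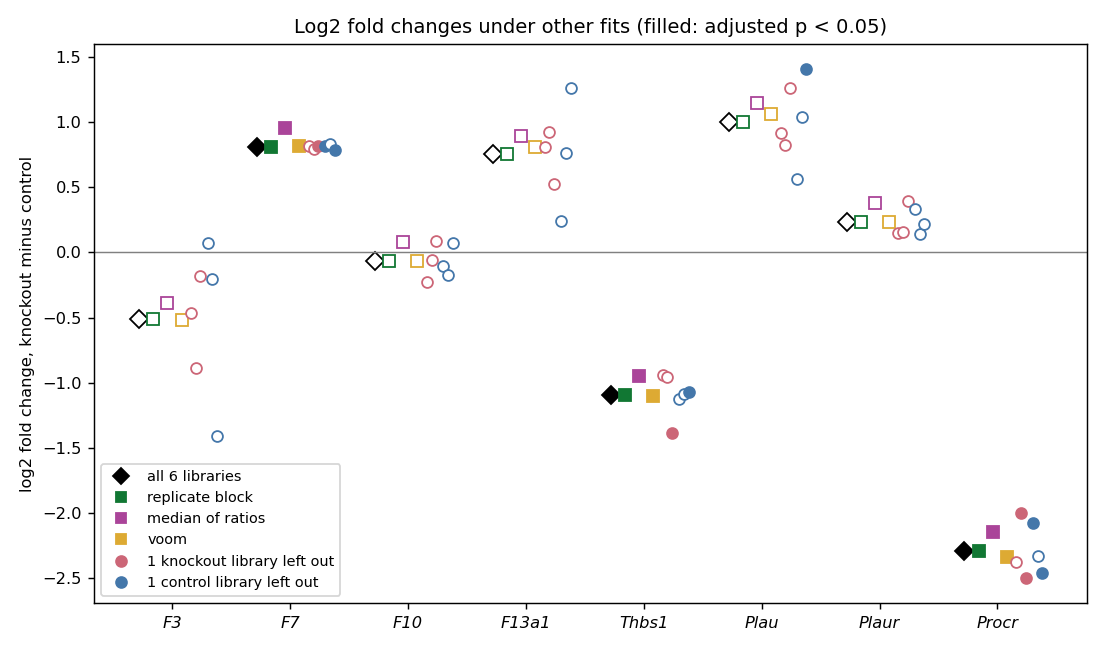
Log2 fold change (knockout minus control, vertical axis) of the 8 tested members with all 6 libraries, with the replicate block, after rescaling by the median of ratios, with voom on recovered reads, and with each knockout (red) or control (blue) library left out, filled where the adjusted p was below 0.05. F7, Procr and Thbs1 keep their sign in every fit shown, F3 runs from -1.41 to 0.07 and F10 crosses 0.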

How the data were processed

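Total RNA of 6 PEM libraries was sequenced by the authors. Their single deposited table holds FPKM per gene and library, made from reads counted per gene, with mm9 listed as the genome build in the labels. The aligner, the counter and the annotation are not given in the sources used here. Deposited means of reads divided by the authors' size factors form signal columns, 1 for each group and 1 overall. The authors' own comparison, deposited as a fold change (a ratio), a log2 fold change, a q-value and a p-value, was not used. Whole reads, recovered from FPKM and the group means, came out whole (within 0.02) for 100% of the values, and 0 per-sample columns were left unused.

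In R 4.3.3, limma 3.58.1 (lmFit, then eBayes with trend) was run on log2(FPKM + 1) over genes with a mean of at least 1 FPKM in one group, with adjustment over all genes fitted. Alternatives were a pseudocount of 0.1, no filter, at least 10 reads in every library, a replicate block, rescaling by the median of ratios, voom on recovered reads, a log2 fold change of at least 1 in size, each library left out, and, added after the data were seen, 2 libraries left out together. The main fit was unpaired, and only the replicate block took the replicate numbers as pairs. The deviations of same-numbered libraries had correlations of 0.109, 0.109 and 0.304, each above 0.1. However, one pair with different numbers, knockout 2 and control 1, had a correlation of 0.291. These values therefore do not show that the numbers are pairs. Neither labels nor methods say what the numbers share. The fits were run on simulated reads, drawn with the same dispersion (0.02) for all genes and with no outlying library. That check therefore says nothing about calls decided by single libraries. Named genes are the 9 members, *Timd4*, *Lyz2*, every called gene of the wider list and, for each role in it, the 2 tested genes with the highest level, plus the nearest profiles of 2 members. *Lrp1*, *Tfpi*, single marker genes, promoters and motifs were picked with values in view. Named results of 1 gene of the wider list are not reported here. The members and all lists were chosen with earlier results of these data known.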

Additional observations from a re-analysis of the deposited data

How the results depend on the processing

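With all 6 libraries, 3 members, 1 gene of the wider list and 660 of all genes were called. Requiring a log2 fold change of at least 1 in size left 346 of all genes and 2 members, 0 higher and 2 lower, so that *F7* lost its call. The wider list had 0 calls without a filter and 0 with at least 10 reads in every library, 2 after rescaling by the median of ratios, and 5 with knockout library 2 and control library 3 both left out. The replicate block gave 855 calls over all genes, 3 of members and 1 of the wider list, and it changed the calls of *Serpinb2*, *Furin* and *Timd4* and no other call among the members, the wider list, *Timd4* and *Lyz2*. With 1 library left out, the calls ranged from 0 to 4 for members, from 0 to 9 for the wider list and from 8 to 1333 for all genes (unadjusted p below 0.05 for 1436 to 2982 genes). Leaving out control library 2 gave 8 calls over all genes, knockout library 1 gave 30, knockout library 2 gave 63 and control library 3 gave 1333. The fits that omitted knockout library 1 or control library 2 called 0 members, and that without knockout library 2 called 1. The wider list had 9 calls when control library 3 was left out. With 1 library left out, the log2 fold change of *F3* ranged from -1.407 to 0.069 (without control library 1) and that of *F10* from -0.228 to 0.084 (without knockout library 3, and 0.073 without control library 3). That of *F10* was also above 0 after rescaling (0.079) and with both libraries left out (0.082). Over the alternatives other than that minimum fold change and the 8 tested members, 86 values kept their direction and side of the threshold, 11 lost the threshold, 2 gained it and 5 changed sign. The cause was not tested. Low counts limit *Thbd* alone among the members, with 30 to 123 reads per library.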

Other observations

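The genes beside the called members on their chromosomes, in the order of RefSeq (GRCm38.p6), were examined after the values of the members had been seen. Of the 3 tested genes on each side of *F7*, 0 were called, and their log2 fold changes lay between -0.07 (*F10*) and 0.30 (*Atp11a*). Around *Thbs1*, 0 of 6 were called, with *Rasgrp1* at -0.90 (adjusted p = 0.154 from limma) and *Bub1b* at 0.79 (adjusted p = 0.0769 from limma). Around *Procr*, 1 of 6 was called. This was *Gssos2*, an antisense gene named for *Gss*, at -0.90 (standard error 0.13, adjusted p = 0.0133 from limma), and the other 5 lay between -0.34 and -0.20. *Gss*, one of the genes nearest to *Procr* in profile, was lower in the knockout group, with a log2 difference of -2.40 (limma, adjusted p = 0.00919). Whether the counting used strand is not given in the sources used here, so reads of *Gss* and *Gssos2* cannot be told apart.

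Relations between members within a library shifted as well. The ratio of *F7* to *Procr* was 5.42, 9.64 and 4.57 in the knockout and 0.52, 0.761 and 0.854 in the control libraries, 9.19 times as high in the knockout group. The ratio of *Procr* to *Thbs1* was 0.292, 0.167 and 0.186 against 0.691, 0.455 and 0.375. These ratios were chosen after the values had been seen and combine genes that differed on their own.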
